A study of Mus musculus with 4 samples.

Results

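The proteasome is the particle that degrades most ubiquitin-tagged proteins of a cell. Its 20S core is a barrel of stacked rings of alpha and beta subunits, with the cutting sites on 3 of the beta subunits, and the 19S cap recognizes, unfolds and feeds in the substrates through a ring of ATPases and a set of non-ATPase subunits. Interferon can replace the 3 constitutive catalytic subunits by those of the immunoproteasome, which alters the peptides made for MHC class I. Fibroblasts in culture rely mainly on the constitutive particle.

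The genes described here were all rows of the deposited count matrix that were annotated as protein-coding and whose symbol began with Psma to Psmg followed by a digit. There were 50 of them among 55487 counted genes, of which 21936 were protein-coding. They comprised 7 alpha subunits, 7 constitutive beta subunits, 3 immunoproteasome subunits, 6 ATPases and 11 non-ATPase subunits of the 19S cap, 7 assembly chaperones, 5 activators or regulators, and the 2 tissue-restricted core subunits Psma8 and Psmb11. The other 2 were Psme2b, a near-identical copy of Psme2, and Psmc3ip, which matches the name pattern but encodes a partner of meiotic recombinases and no proteasome subunit. The tested set held 49 genes with at least 10 counts over the 4 libraries. Psmb11, the thymic catalytic subunit, was not tested, with 1 and 0 counts in control and 2 and 5 counts in PEDF-treated MEFs.

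RNA was sequenced from wild-type mouse embryonic fibroblasts (MEFs), primary cells grown from embryos, to examine the effects of pigment epithelium-derived factor (PEDF), a secreted protein of the serpin family, on gene expression. MEFs were cultured for 24 h without PEDF (control) or with 100 ng/mL PEDF that had been purified from mammalian cells. The labels give passage 2 and the text of the study a later one, so that the passage is uncertain. Experiments 1 and 2 each provided 1 control library and 1 PEDF library from their own embryos, so that each group held 2 libraries, and p-values of the fit without a block rest on the spread between 2 MEF preparations. The libraries held 14722848 to 18144640 counts, and 3 counts, the upper limit that a count of 0 allows by counting error alone, corresponded to 0.168 to 0.203 CPM (counts relative to the size of the scaled library). All 9 fibroblast markers examined were detected in all libraries, and their summed level was 13135 to 17406 TPM (a level that also corrects for gene length). The 8 macrophage and leukocyte markers summed to 178 to 308 TPM, the 5 skeletal muscle markers to 287 to 391 TPM, the 6 epithelial markers to 72.5 to 90.8 TPM and the 5 endothelial markers to 6.83 to 7.24 TPM.

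Promoter sequences, from 250 bases before to 50 bases after the transcription start, were matched in RefSeq (GRCm38.p6) for 42 of the 50 genes. No sequence was matched for Psma8, Psmb1, Psmb2, Psmb7, Psmc3, Psmd3, Psmd7 and Psmg2. The promoters of Psmb5, Psmb6 and Psmb8 are shown, the catalytic subunits with a match to the antioxidant or an interferon motif. They do not stand for the constitutive or the immunoproteasome genes as a whole. Capitals mark a match to TGACNNNGC, the core of the antioxidant response element at which Nfe2l1 and Nfe2l2 can bind, in Psmb5 (chr14:54617946-54618245, minus strand) and Psmb6 (chr11:70525107-70525406, plus strand). In Psmb8 (chr17:34197945-34198244, plus strand) they mark a match to TTCNNNGAA, the interferon gamma activated sequence.
Psmb5: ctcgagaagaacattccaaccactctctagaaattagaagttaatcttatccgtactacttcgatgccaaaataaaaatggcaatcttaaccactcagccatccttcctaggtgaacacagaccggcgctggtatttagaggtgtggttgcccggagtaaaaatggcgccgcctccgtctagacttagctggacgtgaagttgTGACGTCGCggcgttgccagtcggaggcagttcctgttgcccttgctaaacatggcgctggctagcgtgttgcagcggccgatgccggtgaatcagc
Psmb6: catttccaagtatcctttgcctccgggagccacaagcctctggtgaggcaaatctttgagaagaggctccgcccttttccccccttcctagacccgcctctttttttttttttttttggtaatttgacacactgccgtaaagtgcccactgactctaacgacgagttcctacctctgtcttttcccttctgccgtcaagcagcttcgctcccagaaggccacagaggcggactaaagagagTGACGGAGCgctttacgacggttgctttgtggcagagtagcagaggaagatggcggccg
Psmb8: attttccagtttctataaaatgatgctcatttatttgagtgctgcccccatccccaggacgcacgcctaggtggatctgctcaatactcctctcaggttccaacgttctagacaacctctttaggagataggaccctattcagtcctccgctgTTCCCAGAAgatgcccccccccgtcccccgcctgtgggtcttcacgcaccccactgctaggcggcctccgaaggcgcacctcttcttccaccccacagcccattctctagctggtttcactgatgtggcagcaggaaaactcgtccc

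The matches began 47 bases before the RefSeq start of Psmb5, 9 bases before that of Psmb6 and 97 bases before that of Psmb8. The window of Psmb8 lies inside the gene as counted, which begins at 34197721. Searched on both strands, TGACNNNGC was found in 6 of the 42 promoters (14.3%) and in 13.99% of 27025 promoters in all. TTCNNNGAA was found in 3 (7.14%, against 9.55%), the interferon-stimulated response element, in which GAAA recurs after any 2 bases, in 5 (11.9%, against 3.99%), and CCAAT, the CCAAT box, in 15 (35.7%, against 41.1%). Psmb9 and Psmb10 had no match to either interferon motif. The other TTCNNNGAA matches lay in Psmd2 and Psmg1, and those to the interferon-stimulated response element in Psmb3, Psmd4, Psmd9, Psme1 and Psmg4. Matches of the different motifs can overlap, and a match is a description of the letters only. The genes lay on 16 chromosomes, and 3 pairs had a gap of less than 100 kb. Psmb9 and Psmb8 were 9956 bases apart on chromosome 17, Psme1 and Psme2 were 5911 bases apart on chromosome 14, and Psmb5 and Psmb11 were 3410 bases apart on the same chromosome.

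The constitutive particle was expressed at a high level. The mean level over the 4 libraries of the 31 constitutive 20S and 19S genes lay between 47.3 TPM (Psmd11, a lid subunit of the cap) and 262 TPM (Psmc1, an ATPase), a 5.53-fold range, and each gene was above 40 TPM in every library. Next to Psmc1 stood Psmd2 at 261 TPM, a large subunit of the base, Psmc5 at 261 TPM, and Psmb4 at 261 TPM. The libraries overlapped between these neighbours, with 249 to 273 TPM for Psmc1 and 248 to 272 TPM for Psmd2, so their order was not resolved. The 7 assembly chaperones were lower, from 7.55 TPM (Psmg3) to 47.1 TPM (Psmg1). Among the activators, Psme3 (PA28 gamma, a nuclear activator) reached 114 TPM, Psme1 and Psme2 (the interferon-inducible PA28 alpha and beta) 61.9 and 56.3 TPM, Psme4 (PA200) 40.1 TPM, and the regulator Psmf1 (PI31) 12.3 TPM.

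The immunoproteasome was present at a low level. Psmb10 had a mean of 20.2 TPM, Psmb8 1.97 TPM and Psmb9 1.599 TPM, compared with 243 TPM for Psmb5, 194 TPM for Psmb6 and 103 TPM for Psmb7, the constitutive subunits that they replace. Of the summed TPM of these 6 genes, the immunoproteasome accounted for 4.34% and 4.03% in control MEFs of experiments 1 and 2 and for 4.24% and 4.26% with PEDF. The testis subunit Psma8 had 5 and 5 counts in the control and 8 and 6 counts in the PEDF libraries, a mean of 0.416 TPM.

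**Figure D1:**
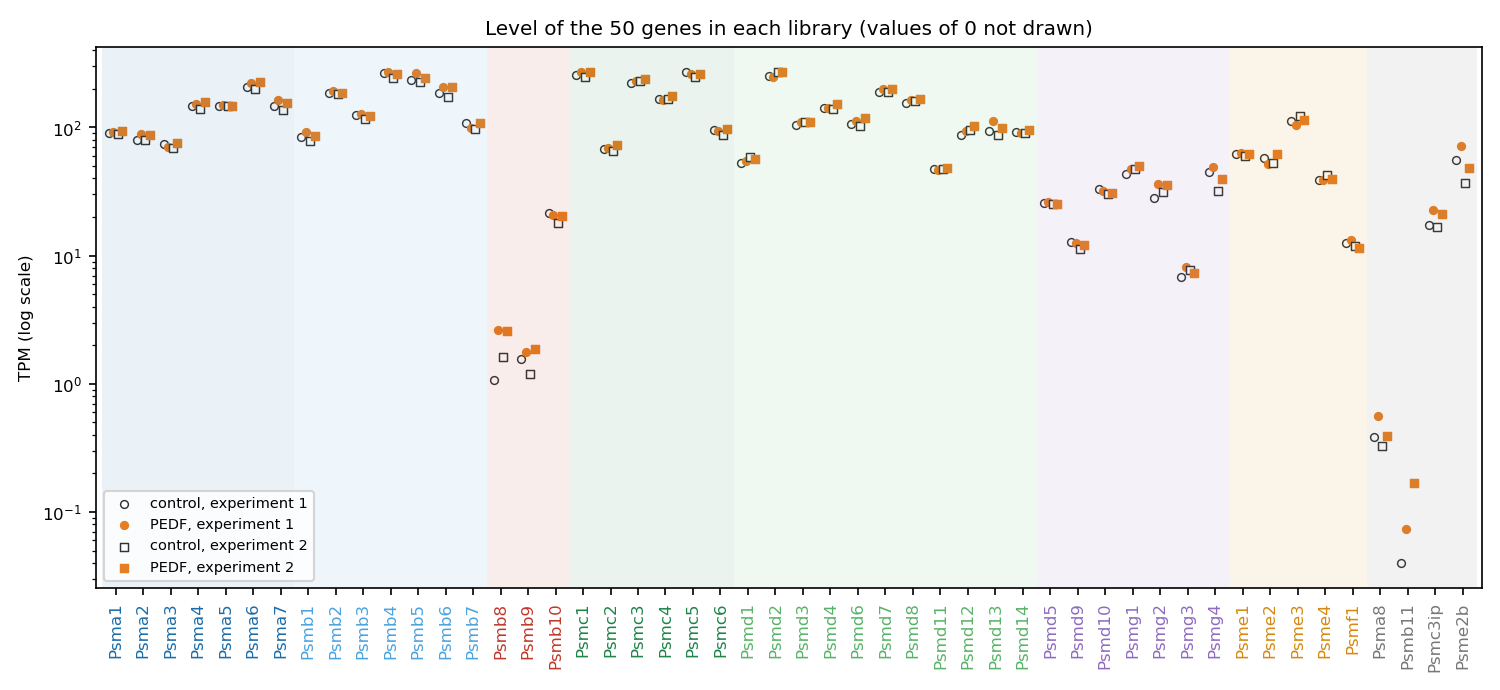
Level of each of the 50 genes in TPM on a log axis (y) for the 4 libraries (open, control; filled, PEDF; circles, experiment 1; squares, experiment 2), with genes grouped by role along x. The constitutive 20S and 19S genes lie between 47.3 and 262 TPM on average, and Psmb8, Psmb9, Psma8 and Psmb11 stand far below them.

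The first question was whether PEDF altered the levels of these genes. Nearly all of them had a slightly higher fitted level with PEDF, but no gene passed the adjusted threshold without a term for the experiment. Of the 49 tested genes, 47 had a log2 fold change above 0 in edgeR's quasi-likelihood test, compared with 50.2% of all 19384 genes tested, and the exceptions were Psme3 and Psme4. The median log2 fold change was 0.094, compared with 0.0012 over all genes. In this fit 0 of the 49 had an adjusted p under 0.05 (0.00516% of all genes did), and limma also gave 0. DESeq2 gave 0 as well (0.0206% of all genes), with an adjusted p returned for 42 of the 49. An unadjusted p under 0.05 was reached by 9 genes, all higher with PEDF, compared with 3.22% of all genes in that direction and 6.88% in either. Of 534 other protein-coding genes with the length and level of constitutive subunits, described below, 8.43% were higher at that threshold. The 9 genes were Psmb8, Psmb6, Psmc3ip, Psmd13, Psma7, Psmg2, Psma2, Psmd6 and Psma6, and their number fell to 1 without PEDF replicate 1 and to 2 without control replicate 2. DESeq2 gave 4, against 2.14% of all genes, and limma also gave 4, against 4.97%. In libraries from whole cultures, fewer cells that express a gene and less RNA per cell cannot be told apart.

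Both PEDF libraries were above both control libraries for 26 of the 49 genes, compared with 18.9% of all genes, and for 0 genes was the reverse found, against 18.4% of all genes. Within experiments, 39 genes were higher with PEDF in both, compared with 30.1% of all genes. The remaining 10 were Psma3, Psmb7, Psmc5, Psmd1, Psmd10, Psme2, Psme4, Psmf1 and Psmg3, which moved in opposite directions, and Psme3, which was lower in both.

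**Figure D2:**
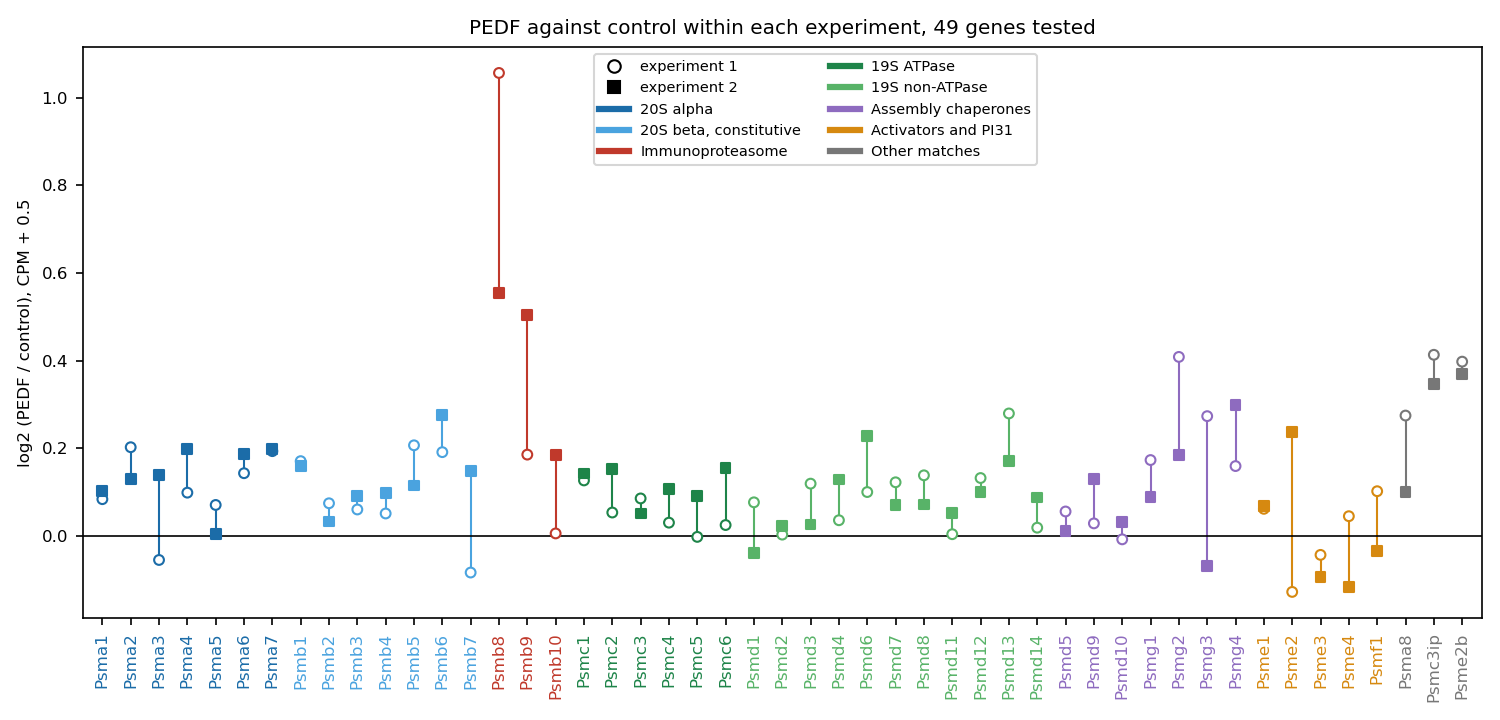
Log2 ratio of PEDF to control (CPM + 0.5, y) for the 49 tested genes (x), colored by role, with an open circle for experiment 1, a filled square for experiment 2 and a line joining them. Most points of the constitutive genes lie between 0 and 0.28, and the immunoproteasome gene Psmb8 lies highest.

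Each experiment was then entered as a block, so that PEDF was compared with control within the same MEF preparation. The difference between preparations is removed in this fit, and edgeR tested each of the 49 genes with a spread pooled over all genes (19384 degrees of freedom, against a median of 15.8 without the block), so that a gene's own disagreement between the experiments did not enter its p. In this fit 5 genes passed an adjusted p under 0.05 in edgeR, all higher with PEDF. These were 10.2% of the 49. Of all genes, 3.75% passed and 1.67% passed as higher, and of 534 other protein-coding genes at the level and in the middle of the length range of the constitutive subunits 8.80% passed as higher. The 5 genes were Psmb6, Psmd13, Psma7, Psmb1 and Psme2b, and 16 genes had an unadjusted p under 0.05, all higher (32.7%), against 7.18% of all genes and 28.5% of the 534 genes in that direction. DESeq2 with the same block returned an adjusted p for 10 of the 49 genes, of the 5 only for Psma7, and 0 of these 10 passed. The other 39 of the 49 could not pass there. Of all 19384 genes, 1345 had an adjusted p in that fit and 117 passed (0.604% of the 19384). An unadjusted p under 0.05 was reached by 3 of the 49 in that fit, against 2.33% of all genes.

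Psmb6 (ENSMUSG00000018286, chr11:70525367-70527858, plus strand) encodes the catalytic subunit with caspase-like activity. Its level was 124 and 112 CPM in control MEFs of experiments 1 and 2 and 142 and 135 CPM with PEDF, or 118 ± 8.81 and 139 ± 4.62 CPM (mean ± SD, n = 2 each). The groups did not overlap, and the level with PEDF was higher by 14.2% in experiment 1 and by 21.1% in experiment 2. The log2 fold change was 0.23 with a standard error of 0.076 (adjusted p = 0.696, edgeR), and 0.23 with a standard error of 0.053 with the block (adjusted p = 0.000934, edgeR). With the length trend removed it was 0.16 and no longer called (adjusted p = 0.0944, and 0.0785 with GC as well, edgeR).

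Psmd13 (ENSMUSG00000025487, chr7:140881968-140898643, plus strand), a lid subunit of the 19S cap, had 113 and 103 CPM in the control and 138 and 116 CPM in the PEDF libraries. The PEDF libraries were above the control libraries, by 21.5% in experiment 1 and by 12.6% in experiment 2. Its log2 fold change with the block was 0.23 with a standard error of 0.055 (adjusted p = 0.00245, edgeR). Without the block it was 0.23 (adjusted p = 0.696, edgeR), and 0.099 without PEDF replicate 1, 0.16 without control replicate 2 and 0.35 without PEDF replicate 2. Psmd13 overlaps the opposite-strand gene Sirt3, with 99 to 127 counts, and the processed pseudogene Gm15542 on its own strand, with 175 to 202 counts against 1672 to 2139 of Psmd13.

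Psma7 (ENSMUSG00000027566, chr2:180036374-180042433, minus strand), a subunit of the outer alpha ring, had 159 and 145 CPM in the control and 182 and 166 CPM in the PEDF libraries. The groups did not overlap, and the rise was similar in size in the 2 experiments, at 14.4% and 14.8%. Its log2 fold change with the block was 0.20 with a standard error of 0.051 (adjusted p = 0.00589, edgeR). Without the block it was 0.20 and not called (adjusted p = 0.696, edgeR). With the block and the length trend removed it was 0.15 and not called (adjusted p = 0.0721), and with GC as well 0.18 and called (adjusted p = 0.0140, edgeR). Psmb1 (ENSMUSG00000014769, chr17:15475021-15499751, minus strand), a non-catalytic beta subunit, had 136 and 124 CPM in the control and 153 and 138 CPM in the PEDF libraries. Its levels did not overlap either, and its log2 fold change with the block was 0.17 with a standard error of 0.052 (adjusted p = 0.0432, edgeR). Its adjusted p was 0.719 without the block (edgeR). With the block and the length trend removed its fold change was 0.16 (adjusted p = 0.0650), and with GC as well 0.16 (adjusted p = 0.0431, edgeR). Without the block and with a library left out, the fold change ran from 0.088 (without PEDF replicate 1) to 0.24 (without PEDF replicate 2) for Psmb1, and from 0.13 (without control replicate 2, and also without PEDF replicate 1) to 0.27 (without control replicate 1) for Psma7.

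Psme2b (ENSMUSG00000078153, chr11:48945354-48946190, minus strand) had 16.5 and 10.7 CPM in the control and 21.9 and 13.98 CPM in the PEDF libraries. The groups overlapped because experiment 1 was the higher in both, and within experiments the level with PEDF was higher by 32.7% and 30.5%. The log2 fold change with the block was 0.40 with a standard error of 0.13 (adjusted p = 0.0432, edgeR). With the length trend removed it was 0.31 and no longer called (adjusted p = 0.238, and 0.264 with GC as well, edgeR). Without the block it was 0.40 (adjusted p = 0.802, edgeR), and ranged from 0.047 without PEDF replicate 1 and 0.11 without control replicate 2 to 0.70 without PEDF replicate 2 and 0.74 without control replicate 1. Psme2b shares most of its sequence with Psme2. Per the paper's methods uniquely mapped reads were counted, so that reads matching both genes equally would be left out. Its count is therefore uncertain. For Psme2 itself, the control libraries had 36.5 and 32.3 CPM and the PEDF libraries 33.3 and 38.2 CPM, in opposite directions in the 2 experiments.

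In the constitutive core and cap, all 31 genes had a log2 fold change above 0 (50.2% of all genes did), but each was small. The fold changes ranged from 0.013 (Psmd2) to 0.23 (Psmb6) with a median of 0.089, an increase of 6.33%, and the median standard error of a single gene was 0.074. The median was 0.084 within experiment 1 and 0.11 within experiment 2. Of the 31 genes, 27 were higher with PEDF in both experiments (30.1% of all genes). Both PEDF libraries were above both control libraries for 21 (18.9% of all genes). Of the 534 other genes at their level and in the middle of their range of length, 59.0% and 37.8% were so, and 76.0% were above 0. The summed level of the fibroblast markers was 14567 and 17406 TPM without PEDF and 13135 and 14904 TPM with PEDF in experiments 1 and 2, and most of it was Col1a1 (8332 and 10587 against 7226 and 8469 TPM). The 9 markers were split, with 4 above 0 and a median log2 fold change of -0.050 (5 and 0.011 with the block and the length trend removed), and with the block 3 were called as lower and 2 as higher, in a fit that called 3.75% of all genes. The muscle markers summed to 287 and 360 TPM without and 311 and 391 TPM with PEDF. The part of these cells in the levels of the constitutive genes was not tested. The summed CPM of the 31 genes was 4110 and 3935 without PEDF and 4364 and 4234 with PEDF in experiments 1 and 2.

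The alpha ring, which gates the core, had a median of 0.15 on the log2 scale, with all 7 genes above 0 and 5 with groups that did not overlap. The constitutive beta ring had a median of 0.076, with 3 of 7 genes not overlapping, the ATPases 0.079, with 4 of 6, and the non-ATPase subunits 0.083, with 9 of 11, where 18.9% of all genes and 37.8% of the 534 genes did not overlap in that direction. With the block and the length trend removed, the medians were 0.075 for the alpha ring, 0.010 for the beta ring, 0.035 for the ATPases and 0.058 for the non-ATPase subunits. Psmd14, the deubiquitinase of the cap, had 91.8 and 87.8 CPM in the control and 93.0 and 93.3 CPM in the PEDF libraries, and Psmd4, a ubiquitin receptor, 143 and 136 against 146 and 149 CPM. Their log2 fold changes were 0.054 and 0.083 (adjusted p = 0.912 and 0.831, edgeR). Members of a ring are not replicates of PEDF treatment, since all of them were read in the same 4 libraries.

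The second question was how the constitutive genes compared with other genes of similar length. Short genes tended to have higher fold changes with PEDF than long genes in these libraries, and the constitutive genes were short, with a median exon length of 2808 bases against 4408 bases for all protein-coding genes tested. Among 2681 other protein-coding genes with a mean level between 69.0 and 372 CPM, the range of the constitutive genes, the median log2 fold change with the block was 0.096 below 2000 bases, 0.049 from 2000 to 4000 bases, -0.014 from 4000 to 8000 bases and -0.081 above.

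Restricted to the middle 50% of the constitutive exon lengths, from 2057 to 3585.5 bases, 534 other protein-coding genes of that level had a median log2 fold change of 0.055 without the block. Of these 534 genes, 76.0% were above 0, 59.0% were higher in both experiments and 37.8% had PEDF libraries above both control libraries. The 15 constitutive genes in the same range of length had a median of 0.094, with 15 above 0, 14 higher in both experiments and 12 not overlapping. With the block, 8.80% of the 534 genes rose at an adjusted p under 0.05 in edgeR, and 2 of the 15 (13.3%) did. With the length trend removed, 1 of the 15 (6.67%) and 9 of the 534 genes (1.69%) were called as higher, and with length and GC trends removed 2 of the 15 (13.3%) and 8 of the 534.

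Removal of the length trend from each library lowered the median of the 31 constitutive genes from 0.091 to 0.058, with 26 above 0, and left Psmd13 with an adjusted p under 0.05 (log2 fold change 0.19, adjusted p = 0.0231, edgeR with the block), where 0.908% of all genes were called as higher. With trends on both length and GC content removed, the median was 0.037, with 22 above 0, and Psmd13, Psma7 and Psmb1 were called (adjusted p = 0.00878, 0.0140 and 0.0431), where 0.929% of all genes were. The median of the 534 genes of like length and level was 0.0045 and 0.009. The part of the length trend in the fold changes of single subunits was not tested further.

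**Figure D3:**
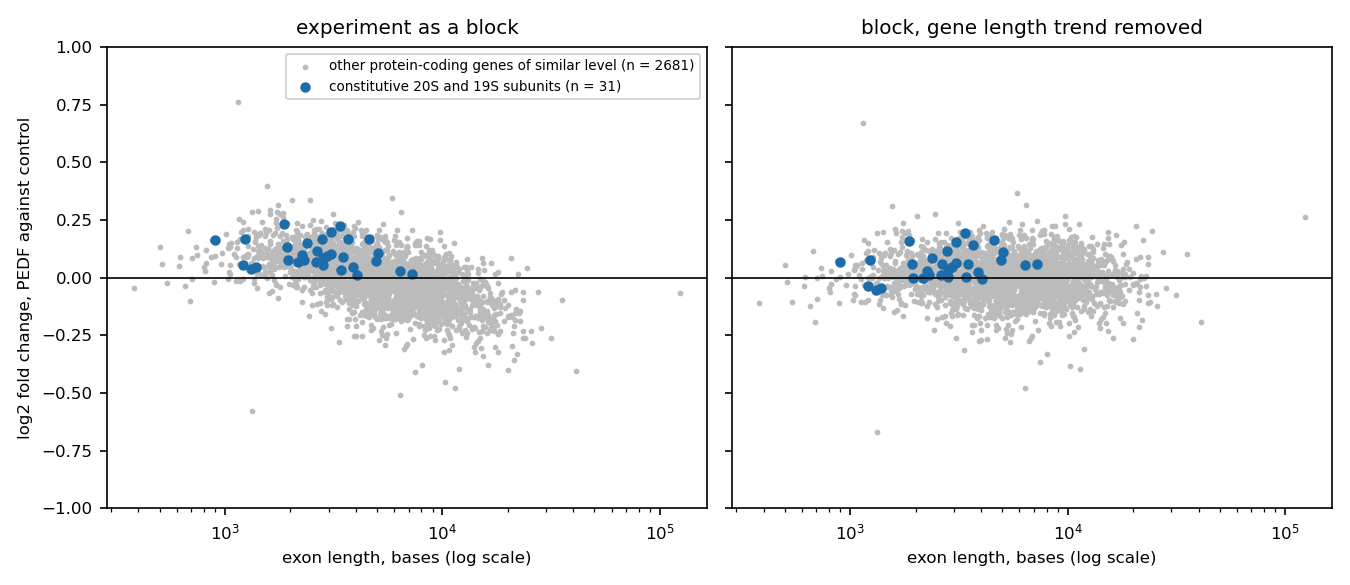
Log2 fold change of PEDF against control (y) against exon length in bases on a log axis (x) for the 31 constitutive 20S and 19S genes (blue) and 2681 other protein-coding genes of similar level (grey). On the left, with the experiment as a block, the median of the grey genes falls from 0.096 below 2000 bases to -0.081 above 8000 bases; on the right, with the length trend removed, the grey genes center near 0 at all lengths and 26 of the 31 blue genes lie above 0.

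The immunoproteasome genes were examined apart from the constitutive genes. Psmb8 (ENSMUSG00000024338, chr17:34197721-34201454, plus strand), which takes the place of Psmb5, had 19 and 34 counts in the control and 50 and 54 counts in the PEDF libraries, or 1.29 and 1.91 against 3.22 and 3.03 CPM. The PEDF libraries were above the control libraries, and the level was higher by 150% in experiment 1 and by 59.0% in experiment 2. The log2 fold change was 0.95 with a standard error of 0.33, the largest of the 49 genes, and the adjusted p was 0.696 without and 0.0634 with the block (edgeR). It ranged from 0.71 to 1.27 with a library left out, and from 0.62 to 1.27 over all alternatives. Psmb8 overlaps the antisense gene Gm20496, which had 27 and 35 counts in the control and 30 and 39 counts in the PEDF libraries. The strand setting of the counting is not given in the sources used here, so that reads of the 2 genes may not have been kept apart.

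Psmb9 (ENSMUSG00000096727, chr17:34181987-34187764, minus strand), which takes the place of Psmb6, had 30 and 27 counts in the control and 37 and 42 counts in the PEDF libraries. These groups did not overlap, and the log2 fold change was 0.43 with a standard error of 0.34 (adjusted p = 0.812, edgeR), an interval of -0.29 to 1.15. It was 0.22 without control replicate 2 and 0.64 without control replicate 1. Psmb9 overlaps the opposite-strand gene Tap1, with 352 to 436 counts. Psmb10 (ENSMUSG00000031897, chr8:105935735-105938444, minus strand), which takes the place of Psmb7, had 191 and 190 counts in the control and 202 and 217 in the PEDF libraries. After scaling the groups overlapped, at 12.9 and 10.7 against 13.0 and 12.2 CPM, and the log2 fold change was 0.10 with a standard error of 0.15 (adjusted p = 0.922, edgeR). It was 0.24 without control replicate 1, 0.050 without PEDF replicate 1 and -0.042 without control replicate 2. With the block it was 0.10, and 0.019 with the length trend removed as well. The antisense gene Gm16156 over Psmb10 had 395 to 593 counts.

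Of the constitutive partners of these subunits, Psmb6 is described above. Psmb5, with chymotrypsin-like activity, had 75.1 and 70.7 CPM in the control and 86.7 and 76.6 CPM in the PEDF libraries, and the groups did not overlap (log2 fold change 0.16, adjusted p = 0.739, and 0.126 with the block, edgeR). That fold change was 0.072 without PEDF replicate 1, 0.25 without PEDF replicate 2, and 0.069 with the block and the length trend removed. Psmb7, with trypsin-like activity, had 131 and 116 against 123 and 129 CPM, lower with PEDF in experiment 1 and higher in experiment 2 (log2 fold change 0.032, adjusted p = 0.948, edgeR). Psmb7 overlaps the opposite-strand gene Nek6, with 1950 to 2486 counts, about as many as Psmb7 itself.

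Per length, the ratio of Psmb8 to Psmb5 was 0.456% and 0.717% in the control and 0.986% and 1.05% in the PEDF libraries, a log2 difference of 0.83. The ratio of Psmb9 to Psmb6 was 0.838% and 0.693% in the control and 0.859% and 0.891% in the PEDF libraries, a log2 difference of 0.20. That of Psmb10 to Psmb7 was 19.8% and 18.4% against 21.1% and 18.997%, a log2 difference of 0.067 with overlapping groups. In an exact two-sided permutation test p was 0.333, 0.333 and 0.667, or 0.5, 0.5 and 0.667 after adjustment over the 3 ratios, where 0.333 is the smallest p that 2 libraries against 2 allow.

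**Figure D4:**
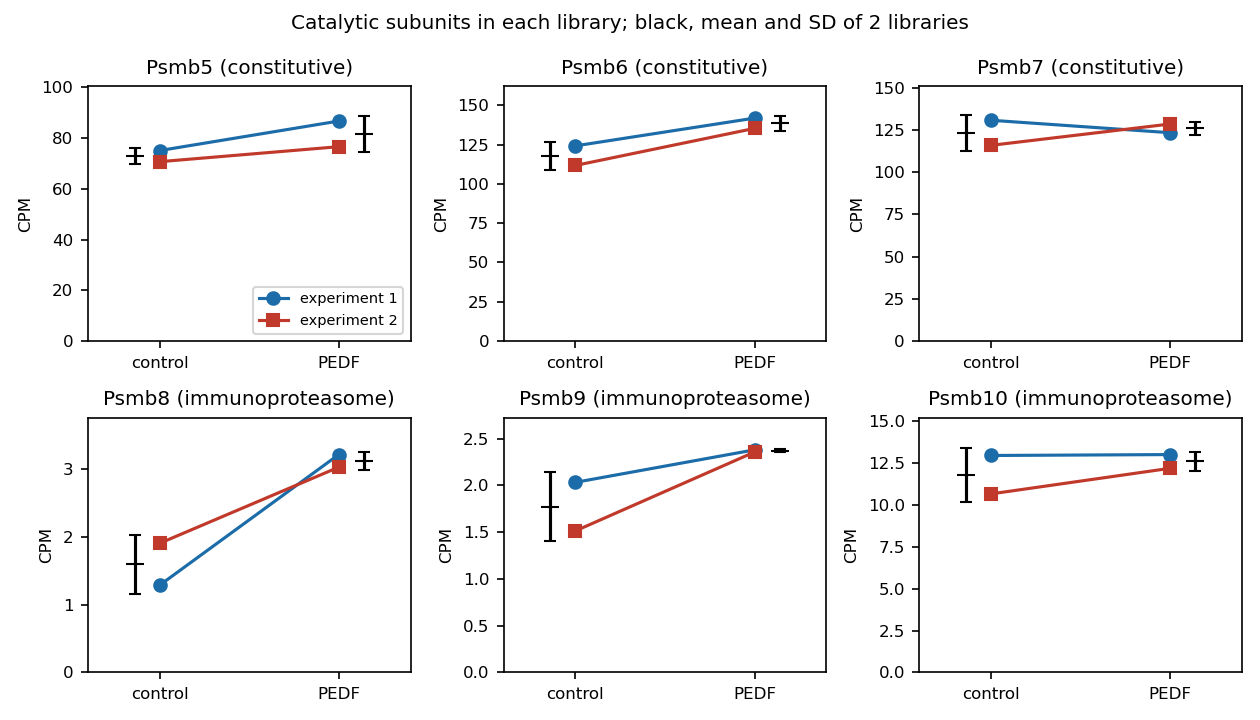
CPM (y, from 0) of the 3 constitutive catalytic subunits (top) and the immunoproteasome subunits that replace them (bottom) in the control and PEDF libraries (x), with a line for each experiment and the mean ± SD of 2 libraries in black. Psmb8 lies at 1.29 and 1.91 CPM in the control and 3.22 and 3.03 CPM in the PEDF libraries, while the lines of Psmb7 cross.

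Immunoproteasome genes are abundant in leukocytes, and macrophage transcripts were present in these cultures. The 8 macrophage and leukocyte markers summed to 291 and 178 TPM in the control and 308 and 250 TPM in the PEDF libraries, higher with PEDF in both experiments, with a median log2 difference of 0.22 (0.13 once the length trend was removed in the block fit). Of the 8, 5 were higher with PEDF in both experiments. In edgeR without the block 0 reached an unadjusted p under 0.05. With the block 4 did as higher (7.18% of all genes) and 0 as lower, and 1 of them, the macrophage lysozyme Lyz2, was called at an adjusted p under 0.05 (1.67% of all genes). With the length trend removed 1 marker was called as higher (0.908% of all genes). With length and GC trends removed 0 were, and Lyz2 had an adjusted p of 0.201 (edgeR). Ptprc, the pan-leukocyte marker, had 0.542 and 0.620 against 0.703 and 0.406 TPM, and no marker was at 0. The part of these cells in the counts of Psmb8 and Psmb9 was not tested. Of 8 genes linked to interferon and antigen processing, 5 were above 0 in edgeR without the block. Their median log2 fold change was 0.051 and the lowest -0.62. With the block and the length trend removed 3 were above 0, with a median of -0.0029. Without the block 0 passed the adjusted threshold, and 1 was higher at an unadjusted p under 0.05 (3.22% of all genes). With the block 1 passed the adjusted threshold. This was Tapbp (tapasin), at 56.1 and 53.8 TPM in the control and 64.1 and 60.9 TPM in the PEDF libraries (log2 fold change 0.21, adjusted p = 0.0258, edgeR with the block, where 1.67% of all genes were called as higher). With the length trend removed its adjusted p was 0.0973, and with length and GC trends removed 0.0297 (edgeR). The interferon-responsive factor Irf1 had a log2 fold change of 0.013 (adjusted p = 0.986, edgeR).

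The 7 assembly chaperones were all above 0, with a median log2 fold change of 0.11. In edgeR 0 passed the adjusted threshold and 1 the unadjusted, against 3.22% of all genes as higher. Psmg2, which pairs with Psmg1 to seed the alpha ring, had 17.3 and 18.9 CPM in the control and 23.1 and 21.6 CPM in the PEDF libraries, without overlap (log2 fold change 0.30, adjusted p = 0.696, and 0.109 with the block). Psmg1 had 20.6 and 22.03 against 23.3 and 23.5 CPM, also without overlap. Psmg3 and Psmg4, which form the other pair, had 7.05 and 7.79 against 8.62 and 7.41 CPM and 8.88 and 6.11 against 9.97 and 7.63 CPM, and both overlapped. Of the chaperones of the 19S base, Psmd5 had a log2 fold change of 0.035, Psmd9 of 0.079 and Psmd10 of 0.013. Psmd10 had 17.1 and 15.5 CPM in the control and 17.05 and 15.8 CPM in the PEDF libraries.

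The activators and Psmf1 were split in direction, with 3 of 5 fold changes above 0 and 0 called in edgeR with or without the block, also at an unadjusted p under 0.05. Psme3 had 117 and 126 CPM in the control and 113 and 118 CPM in the PEDF libraries, lower with PEDF by a log2 fold change of -0.070 with a 95% interval of -0.23 to 0.087 (adjusted p = 0.875, edgeR). It was -0.12 without control replicate 1, -0.042 without PEDF replicate 1, -0.015 without control replicate 2, and -0.12 with the block and the length trend removed (unadjusted p = 0.0302, adjusted p = 0.345, edgeR). Psme4 had 116 and 124 against 120 and 115 CPM (log2 fold change -0.037), and Psme1 48.9 and 45.6 against 51.0 and 47.9 CPM (0.066, and 0.015 to 0.11 with a library left out). Psmf1, which can bind and inhibit the core, had 28.8 and 26.3 against 30.9 and 25.7 CPM (0.038). The libraries of the 2 groups overlapped for each of these genes. Psmc3ip, which is no subunit, had 11.2 and 10.5 against 15.1 and 13.5 CPM without overlap (log2 fold change 0.40, adjusted p = 0.696, and 0.0846 with the block, edgeR), and it overlaps the opposite-strand gene Mlx, with 347 to 407 counts.

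Genes around the proteasome were taken from lists. Of 17 partner genes, 0 passed the adjusted threshold in edgeR with or without the block, and 3 were higher at an unadjusted p under 0.05 with the block and 0 without it. In the block fit 7.18% of all genes and 28.5% of the 534 genes with the length and level of constitutive subunits were higher at that threshold. The 17 genes were longer than the 534, with a median exon length of 4457 against 2952.5 bases. They had a median log2 difference of -0.00076, and 8 were above 0. With the block and the length trend removed the median was 0.020, and 11 were above 0. Of the 17, Pomp, which matures the core, had 36.8 and 32.8 TPM in the control and 36.6 and 38.3 TPM in the PEDF libraries, and Adrm1, a ubiquitin receptor, 69.7 and 67.7 against 68.2 and 74.0 TPM. The small cap subunit Sem1 had a log2 fold change of 0.12, and the deubiquitinases Usp14 and Uchl5 had -0.011 and 0.11 (adjusted p from 0.814 to 0.982). Of 8 genes that act on proteasome gene transcription, 0 passed in either fit, and 6 were below 0 without the block. Ddi2 alone was lower at an unadjusted p under 0.05. At that threshold 710 of all 19384 genes were lower without the block and 1430 with it. Nfe2l1, the activator of proteasome genes, had 178 and 189 TPM in the control and 169 and 179 TPM in the PEDF libraries, and Ddi2, the protease that releases it, 16.2 and 17.3 against 14.1 and 14.1 TPM (log2 fold change -0.22, adjusted p = 0.696, and 0.0503 with the block). Nfe2l2 had 60.4 and 57.8 against 61.6 and 58.3 TPM.

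Of 6 genes for ubiquitin supply and activation, 2 rose with the block and 0 without it in edgeR. Without the block 1 was higher at an unadjusted p under 0.05, against 3.22% of all genes. With the block the other 4 were below 0, the lowest at -0.34, 0 of them at an unadjusted p under 0.05, and the median of the 6 was -0.013. The 2 called genes were Ubb, a polyubiquitin gene, at 1137 and 1037 TPM in the control and 1191 and 1192 TPM in the PEDF libraries (log2 fold change 0.16, adjusted p = 0.0116, edgeR), and Rps27a, a fusion of ubiquitin with a ribosomal protein, at 553 and 631 against 736 and 787 TPM (log2 fold change 0.39, adjusted p = 1.7e-15, edgeR). In that fit 1.67% of all genes were called as higher. With the length trend removed, Rps27a was still called and Ubb was not (adjusted p = 0.498, edgeR). Of 6 genes of the p97 segregase, which extracts ubiquitin-tagged proteins, 0 passed in either fit, adjusted or not, and Vcp had 372 and 400 against 389 and 391 TPM.

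The 2 MEF preparations were also compared, with the treatment as a covariate. Most proteasome genes were slightly lower in experiment 2, with a median log2 difference of -0.068 and 40 of the 49 below 0, and in the 20S core 0 of 14 genes were above 0. Of all genes tested, 50.2% were above 0 in this comparison. Of the 534 genes of like length and level, 31.5% were, with a median log2 difference of -0.041. The macrophage and leukocyte markers had a median of -0.37 (0 of 8 above 0) and the epithelial markers -0.33 (1 of 6). The muscle markers had 0.24 (4 of 5), the fibroblast markers 0.10 (7 of 9) and the endothelial markers 0.046 (4 of 5). The part of these cells in the difference was not tested. At an adjusted p under 0.05 in edgeR, Psme2b and Psmd13 passed, both lower in experiment 2 (4.49% of all genes passed in either direction, with the spread pooled over all genes as in the block fit), with log2 differences of -0.64 (adjusted p = 4.4e-05) and -0.20 (adjusted p = 0.0120, edgeR). Without the covariate and in limma, 0 genes passed, and in DESeq2 0 of the 21 genes with an adjusted p did. The median size of the difference between preparations was 0.072 on the log2 scale, and that between PEDF and control, with the block, was 0.094.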

How the data were processed

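RNA from MEFs with or without PEDF was analyzed in 4 libraries. Per the labels and the paper's methods, the authors purified polyadenylated RNA and made directional libraries. The submitters' processing notes name FastQC 0.11.7, Trimmomatic 0.38, HISAT2 2.1.0, SAMtools 1.9, featureCounts 1.6.3 and the build mm10. The authors deposited raw read counts per gene, which were tested here, and TPM values, which were used for levels between genes. The annotation and strand setting are not given in the sources used here. Of 55487 genes, 54784 had the coordinates of GENCODE M21, from which exon lengths were taken. Per the paper's methods, uniquely mapped reads were counted. The matrix carries no reads, so the handling of reads shared by genes could not be examined further.

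Counts of 19384 genes with at least 10 counts in total were tested with edgeR 4.0.16 under R 4.3.3 (TMM factors of 0.983 to 1.01, robust quasi-likelihood test, no covariate, Benjamini-Hochberg adjustment over all tested genes), and CPM used the scaled libraries. Log2 ratios within experiments used a pseudocount of 0.5 CPM, which understates differences of low genes. The series design gives each experiment its own embryos, so the experiment number pairs the libraries. The log2 differences of the 2 control libraries and of the 2 PEDF libraries had r = 0.425 over 10709 genes with a mean CPM above 8 (a correlation across genes, not over replicates), and a block for the experiment was fitted as well. Alternatives were DESeq2 1.42.0, limma 3.58.1 on log2(TPM + 1), RLE factors, other filters, the block with trends on length (natural splines, 5 degrees of freedom) removed, and each library left out. The removal of a GC trend and the comparison with genes of similar level were chosen after seeing the data. The methods were run on simulated data with changes far larger than those of the constitutive genes, which does not show how small changes are called. The genes and lists were chosen with earlier results of these data known. Values per library were given for catalytic subunits, activators, Psmf1, Psmg1 to Psmg4, Psmc3ip, Psma8, Psmb11, members called in either edgeR fit and the 3 largest and 3 smallest fold changes, and from the other lists values were given for Nfe2l1, Nfe2l2, Ddi2, Pomp, Adrm1, Sem1, Usp14, Uchl5 and up to 10 genes called in either edgeR fit. Psmd14, Psmd4, Vcp, Irf1 and Ptprc were named outside this rule, after their values were seen.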

Additional observations from a re-analysis of the deposited data

How the results depend on the processing

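No proteasome gene passed the adjusted threshold for PEDF against control with RLE factors, DESeq2, no filter, filterByExpr, limma, the block in DESeq2, or any library left out (0 to 0). DESeq2 returned an adjusted p for 42 of the 49 genes, and for 10 with the block. The experiment as a replicate block in edgeR gave 5 genes, 1 with the length trend removed and 3 with length and GC trends removed. At an unadjusted p under 0.05 the count of 9 became 16 with the replicate block in edgeR, 3 with the block in DESeq2, and 4 in DESeq2 and in limma, and ranged from 1 to 10 with a library left out. The median of the constitutive genes, 0.089, was 0.066 in limma, 0.058 with the block and the length trend removed, 0.037 with GC as well, and 0.069 to 0.12 with a library left out. The immunoproteasome median, 0.43, was 0.25 in limma and ranged from 0.22 to 0.64 with a library left out. For experiment 2 against experiment 1 the count of 2 became 0 in DESeq2, in limma and without a covariate, and 3 libraries could not be fitted with both terms.

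Of 285 log2 fold changes of 22 named genes under 13 alternatives, 228 kept direction and side of the threshold, 9 passed it under the block fits, 20 changed sign, in 9 genes, and 28 had no adjusted p in DESeq2. With the length trend removed, these were Psme1 (-0.0025), Psme2 (-0.018), Psme4 (0.016) and Psmd10 (-0.075). With GC as well, they were Psmb7 (-0.038), Psme2 (-0.018), Psme4 (0.0013) and Psmd10 (-0.11), and in limma Psmd10 (-0.011). Leave-one-out ranges were -0.055 to 0.12 for Psmb7, -0.042 to 0.24 for Psmb10, -0.042 to 0.15 for Psme2, -0.083 to 0.0099 for Psme4, -0.10 to 0.17 for Psmf1, -0.0056 to 0.21 for Psmg3, -0.018 to 0.52 for Psmg4 and -0.063 to 0.085 for Psmd10. Among genes called with the block, the ranges were 0.16 to 0.31 for Psmb6, 0.13 to 0.27 for Psma7 and 0.088 to 0.24 for Psmb1, lowest without PEDF replicate 1 for Psmb1 and without control replicate 2 for the others. The cause was not tested. Depth limits Psmb8, Psmb9 and Psma8, with 5 to 54 counts in a library, more than the constitutive genes, with 1014 or more.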
